A study of Arabidopsis thaliana with 18 samples.

Results

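Wassilewskija (WS) roots grown on plates tilted backward were compared with WS roots grown on upright plates. The angle of the growth plate (Agp) was 45° for the tilted plates and 90° for the upright plates. The comparison took the 3 arrays labelled as WS slanted backward and the 3 labelled as WS vertical, 6 of the 18 Affymetrix ATH1 arrays in the series, and all probe sets except the array's own controls. Tilted seedlings had 3 days upright and then 5 days at Agp 45°, upright seedlings had 8 days at Agp 90°, and all were harvested at an age of 8 days. Both groups were wild type of 1 ecotype on the same Phytagel medium under constant light, with no mutation and no added agent. The other arrays used below carried WS roots at Agp 135° (plates tilted forward) and Columbia (Col-0) roots at Agp 45° and 90°, with 3 arrays each. Roots were cut from the shoots and 5 roots were pooled for each array. Nothing in the labels says that arrays of a group came from separate plates, so the p-values rest on the variation among arrays, which may be technical.

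WS roots are known to skew and wave on tilted plates, and upright roots served the study as the control for growth angle. Roots bend where cells on their flanks elongate unequally, and the walls of those cells are loosened and cross-linked by secreted proteins. Expansins loosen walls, xyloglucan endotransglucosylase/hydrolases (XTHs) cut and rejoin xyloglucan, class III peroxidases can cross-link or cleave wall polymers, and pectin methylesterase inhibitors control how pectin is demethylated. Cortical microtubules, which SPIRAL1-type proteins bind, set the direction in which cellulose is laid down, and mutants of SPIRAL1 have roots whose cell files twist.

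The signals are MAS5 intensities, and the fold changes are differences of log2(signal + 32) after quantile normalization. For signals near or below 32 they thus understate the ratio of the signals, which need not be a ratio of RNA. Whole-root RNA was measured, so that fewer cells of a type and less RNA per cell cannot be told apart. The trimmed mean signal of every array was 500.0, the medians of the 6 WS arrays lay between 193 and 206, and their precision is limited by the number of arrays. The actin control probe sets gave a 3′ to 5′ ratio, which rises as RNA degrades, of 4.76, 4.46 and 3.86 on tilted replicates 1 to 3 and 4.26, 4.53 and 6.05 on upright replicates 1 to 3. Upright replicate 3 thus stood apart from the other WS arrays in this ratio. The same ratio of the GAPDH controls was 1.48, 1.44 and 1.26 on tilted replicates 1 to 3 and 1.20, 1.29 and 1.58 on upright replicates 1 to 3. Of these 6 arrays, upright replicate 3 was the highest and tilted replicate 1 the next in both ratios, but less far apart by GAPDH. As a description over probe sets, which are no independent units, Pearson's r was 0.988 to 0.989 among tilted arrays, 0.988 to 0.991 among upright arrays and 0.984 to 0.988 between the groups. The lowest values between the groups, 0.9836, 0.9842 and 0.9846, were those of upright replicate 3.

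Among the probe sets that passed the adjusted test, more were lower than higher in tilted roots. Of 22746 probe sets, 224 passed an adjusted p of 0.05 in limma's moderated test (0.985% of those tested), 36 of them higher at Agp 45° (0.158%) and 188 lower (0.827%). A log2 fold change over 1 in size was also met by 42 probe sets (0.185%), of which 2 were higher (0.00879%) and 40 lower (0.176%). By the threshold of the study's methods, an unadjusted p of 0.05 with a log2 fold change over 1, 51 were called (0.224%), 5 higher (0.022%) and 46 lower (0.202%), and with a pseudocount of 1 in place of 32 the same rule gave 243 higher and 342 lower. At an unadjusted p of 0.05 and any fold change, 2850 passed (12.5%), 1330 higher (5.85%) and 1520 lower (6.68%), so the excess of falls stood among the strongest changes. Over all probe sets the median log2 fold change was 0.0095, and 52.5% of values were positive and 47.5% negative.

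**Figure D1:**
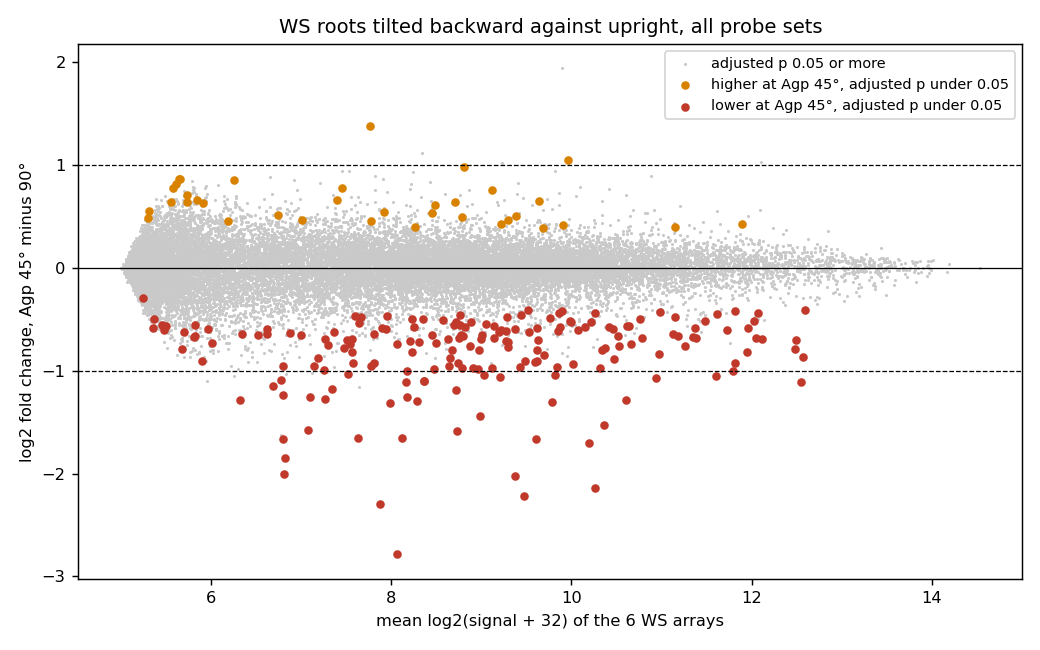
Each point is a probe set, with the mean log2(signal + 32) of the 6 WS arrays on the horizontal axis and the log2 fold change of Agp 45° minus 90° on the vertical axis; dashed lines mark a log2 fold change of 1. Red points (188) are lower and orange points (36) higher at an adjusted p under 0.05, and only 2 orange points lie above the upper line while 40 red points lie below the lower one.

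The 188 falls had a median log2 fold change of -0.71 and ran in size between 0.29 and 2.79. Their sizes were over 1 in 40, between 0.5 and 1 in 126 and at most 0.5 in 22. The 36 rises had a median of 0.62 and sizes between 0.39 and 1.38. For all 224, the 3 tilted arrays did not overlap the 3 upright arrays on the normalized scale (the scale of every statement on overlap here), which also held for 8.32% of all probe sets in the lower direction and 8.9% in the higher one. Among the falls, the median of the mean signals was 318 at Agp 45° and 618 at Agp 90°, and 6 of 188 were under 32 in both groups. The rises were dimmer, with a median of 237 at Agp 45° and 131 at Agp 90°, and 13 of 36 had an upright mean under 32, which 24.7% of all probe sets had.

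These counts leaned on single arrays. Tilted replicate 1 was the lowest tilted array for 121 of the 188 falls, and upright replicate 3 was the highest upright array for 93 of them. Without tilted replicate 1, limma's adjusted test called 79 probe sets (7 higher and 72 lower), 66 of which were among the 224. Without upright replicate 3 it called 96 (8 higher and 88 lower), of which 84 were among the 224. The counts were 139 without tilted replicate 2, 199 without tilted replicate 3, 148 without upright replicate 1 and 131 without upright replicate 2. In each of these 6 fits, all 224 probe sets had the same sign of change as with every array. When only the 6 compared arrays were fitted, 10 passed, all lower.

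Of the 224 probe sets, 132 were matched to 1 gene (25 that rose and 107 that fell). The 85 with no gene name here and the 4 with several genes were counted but not named, and the strongest fall of all, -2.79, was on such a probe set. Of the 42 past both thresholds, 23 carry the name of 1 gene, 22 of which fell.

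Berberine bridge enzyme-like genes, which encode secreted FAD-binding oxidases, gave the strongest fall of any named gene. The signal of *AT5G44400* was 215, 292 and 382 on the tilted arrays and 1368, 1621 and 1547 on the upright arrays. Every tilted array thus lay far below every upright one, and the log2 fold change was -2.22 (standard error, SE, 0.232, adjusted p = 0.000802). Its neighbour on the chromosome in the TAIR10.1 gene order, *AT5G44390*, had signals of 30.7, 56.6 and 63.4 on the tilted arrays and 120, 156 and 97.6 on the upright arrays, and fell by 0.96 (SE 0.176, adjusted p = 0.0145). That call was lost without tilted replicate 1 (adjusted p = 0.0634) or upright replicate 2 (adjusted p = 0.0708). Of the 22 members of the family with a named probe set, of 27 on the list, these 2 fell, 0 rose and 20 did not pass, and the median log2 fold change was -0.0044, against 0.0095 over all probe sets. *AT5G44380*, another member, was at -0.02 (adjusted p = 0.984) at a mean signal of 1623 on tilted and 1635 on upright arrays. Of the 22 members, 11 were dim, with means under 32 in both groups.

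**Figure D2:**
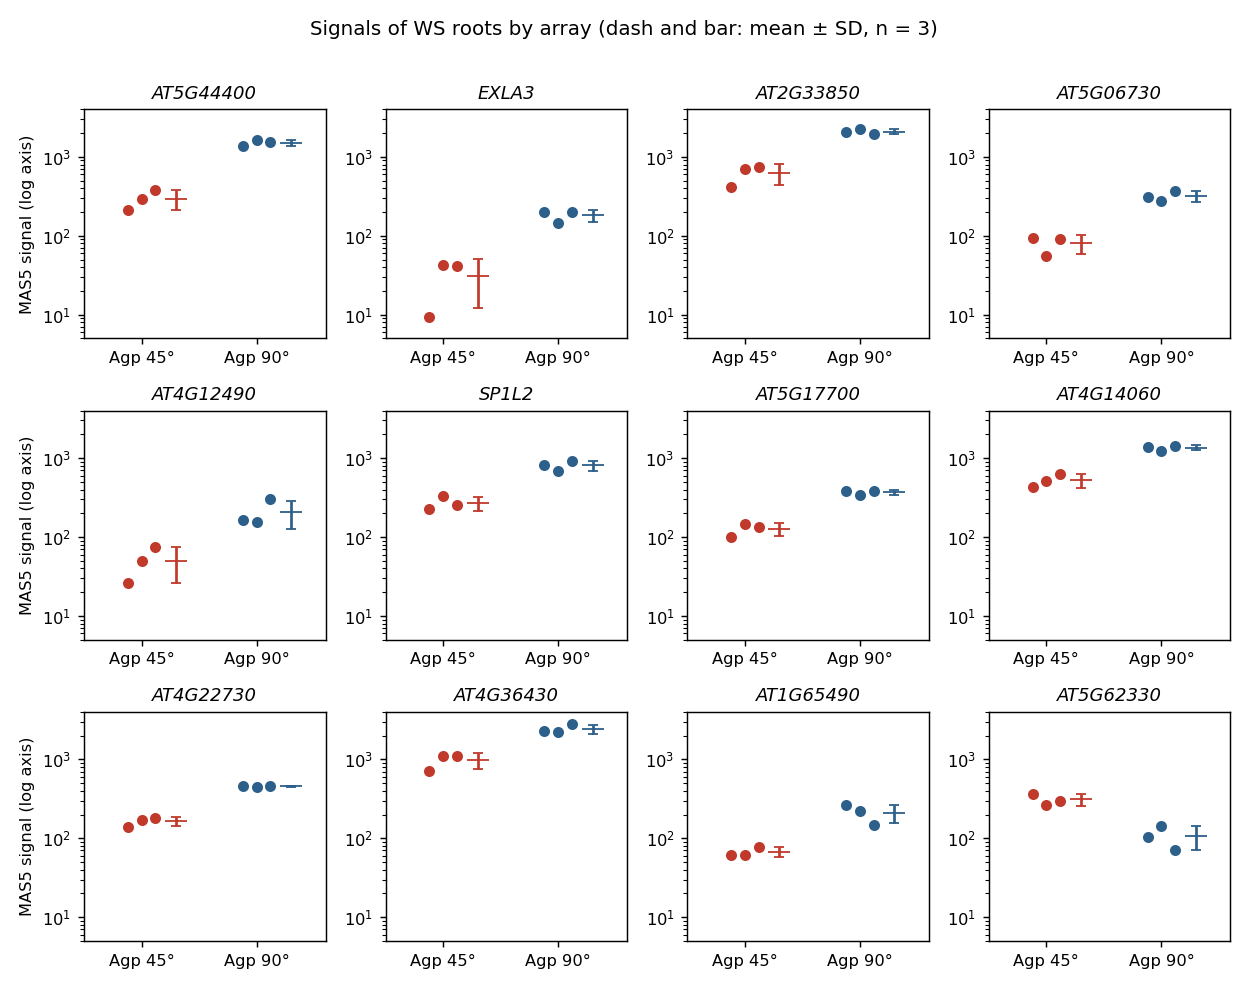
MAS5 signals (log axis) of the 12 named genes with the largest changes among those past both thresholds, on the 3 WS arrays at Agp 45° (red) and the 3 at Agp 90° (blue), each point being an array and the dash with its bar the mean ± SD. In all 12 panels the groups do not overlap, and *AT5G62330* is the only one in which the tilted arrays are the higher.

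Among the expansins, the expansin-like gene *EXLA3* fell to a signal near the dim end of the scale. Its signal was 9.24, 42.9 and 41.5 on the tilted arrays and 203, 146 and 198 on the upright arrays. The log2 fold change was -1.85 (SE 0.205, adjusted p = 0.000824), and the call held with any 1 of the 6 arrays left out. The list of expansins and expansin-like genes had 18 members with a named probe set of 36. Besides *EXLA3*, which fell, 17 did not pass and 0 rose, but 14 of the 18 had a negative log2 fold change (47.5% of all probe sets) and the median was -0.28. At an unadjusted p of 0.05, 7 of the 18 were lower (6.68% of all probe sets) and 2 higher (5.85%). The tilted arrays all lay below the upright ones for 7 (8.32% of all probe sets) and above them for 2 (8.9%). *EXPA4* had signals of 4922, 5979.9 and 5694 on the tilted arrays and 6762, 6714 and 7901 on the upright arrays, with a log2 fold change of -0.40 (adjusted p = 0.0879). *EXPA15* had one of -0.36 (adjusted p = 0.122), *EXPB3* one of -0.32 (adjusted p = 0.166) and *EXPA8* one of -0.51 (adjusted p = 0.162). These 4 genes were among the 7 without overlap. Values on the other side were those of *EXPA9*, with 0.35 (adjusted p = 0.229), and *EXPB2*, with 0.45 (adjusted p = 0.343).

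XTH genes went in both directions. The signal of *XTH21* was 602, 464 and 720 on the tilted arrays and 370, 287 and 218 on the upright arrays, a rise of 0.98 (SE 0.202, adjusted p = 0.0285). *XTH32* had 796, 795 and 803 on the tilted arrays and 1304, 1183 and 1040 on the upright arrays, so that the tilted arrays were almost identical, and it fell by 0.51 (SE 0.106, adjusted p = 0.0282). The groups did not overlap for either gene. Both calls were among the least steady: that of *XTH21* was lost without any 1 of 4 arrays (tilted replicates 1 and 3, upright replicates 2 and 3; highest adjusted p = 0.124), and that of *XTH32* without any 1 of 5, the exception being upright replicate 3 (highest adjusted p = 0.112). Of 10 XTHs with a named probe set on a list of 33, 1 rose, 1 fell and 8 did not pass, with a median of -0.07. *XTH9*, which the study names as changed in tilted WS roots, had no probe set named for it alone. *XTH20*, at 788, 1019.5 and 1017 on the tilted arrays and 1724, 1661 and 1299 on the upright arrays, gave a log2 fold change of -0.69 (adjusted p = 0.0999), and *XTH16* one of 0.37 (adjusted p = 0.354).

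A pair of class III peroxidases fell, while the median of the family stayed at that of all probe sets. *AT5G06730* (PER54) had signals of 93.7, 56.1 and 90.9 on the tilted arrays and 306, 278 and 370 on the upright arrays, a log2 fold change of -1.65 (SE 0.254, adjusted p = 0.00691). *AT4G36430* (PER49) had 715, 1096 and 1105 on the tilted arrays and 2262, 2245 and 2787 on the upright arrays, a log2 fold change of -1.29 (SE 0.267, adjusted p = 0.0285). For both genes the groups did not overlap. The call of PER54 held with any 1 array left out, and that of PER49 held only without tilted replicate 3 (adjusted p of up to 0.134, without tilted replicate 1). Of 55 peroxidases with a named probe set on a list of 73, 2 fell, 0 rose and 53 did not pass. The median log2 fold change was 0.0064, and 28 were positive (52.5% of all probe sets) and 27 negative (47.5%). The peroxidase gene *PER53*, which the study names as changed in WS at Agp 45°, had no probe set named for it alone. The highest value among the peroxidases was 0.63, and *AT5G24070* had 0.50 (adjusted p = 0.116) with tilted arrays at 80.4, 82.8 and 84.8 and upright arrays at 44.6, 70.0 and 42.8.

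For pectin genes there was no list, and the 3 given here were chosen by the size of their change or because the study names them. The pectin methylesterase inhibitor gene *AT5G62330* had signals of 367, 266 and 298 on the tilted arrays and 103, 144 and 71.6 on the upright arrays. It was the only named gene that rose by more than 1 (log2 fold change 1.38, SE 0.242, adjusted p = 0.0115). A gene of the same superfamily, *AT2G01610*, fell to 299, 382 and 427 on the tilted arrays, against 851, 718 and 891 on the upright arrays (log2 fold change -1.06, SE 0.172, adjusted p = 0.00794). The pectate lyase gene *AT3G27400* had 580, 639 and 534 on the tilted arrays and 1235, 1123 and 1434 on the upright arrays (log2 fold change -1.04, SE 0.188, adjusted p = 0.013). No tilted array overlapped an upright one for any of the 3 genes. The calls of *AT5G62330* and *AT3G27400* were lost without tilted replicate 1 (adjusted p = 0.0578 and 0.0555) or upright replicate 3 (adjusted p = 0.0644 and 0.0742), and that of *AT2G01610* was kept in each of the 6 fits.

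Of the microtubule genes, 1 fell strongly. *SP1L2*, a SPIRAL1-like gene, had signals of 225, 328 and 256 on the tilted arrays and 824, 679 and 916 on the upright arrays. The lowest upright array was thus more than 2 times the highest tilted one, and the log2 fold change was -1.44 (SE 0.249, adjusted p = 0.0105). The call was lost without tilted replicate 1 (adjusted p = 0.0558) or upright replicate 3 (adjusted p = 0.0576). Its relatives were measured too: *SP1L5* gave a log2 fold change of -0.51 (adjusted p = 0.125), with 867, 1007 and 1078 on the tilted and 1374, 1324 and 1595 on the upright arrays, and *SPR1* itself one of -0.20 (adjusted p = 0.347). *SP1L3* had -0.11 and *SP1L4* -0.04. Of 15 tubulins and microtubule-associated proteins with a named probe set on a list of 41, 1 fell, 0 rose and 14 did not pass, with a median of -0.01. The 7 tubulin genes, *TUA1*, *TUA6*, *TUB1*, *TUB5*, *TUB6*, *TUB7* and *TUB9*, lay between -0.08 and 0.16.

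Lipid transfer proteins of the pEARLI1 type are small secreted proteins that bind lipids. *AT4G12490* had signals of 26.4, 49.9 and 73.9 on the tilted arrays and 166, 157 and 301 on the upright arrays, a log2 fold change of -1.57 (SE 0.295, adjusted p = 0.0171). The groups did not overlap, and the call was lost without tilted replicate 1 (adjusted p = 0.088), tilted replicate 2 (0.0511) or upright replicate 3 (0.0865). *AT4G12500*, of the same family, gave a log2 fold change of -0.66 (adjusted p = 0.196). Genes of this family resemble each other, so signal may be shared between their probe sets. Of 7 members with a named probe set on a list of 21, 1 fell, 0 rose and 6 did not pass, and the median was -0.24. *AT4G14060*, of the polyketide cyclase/dehydrase and lipid transport superfamily, fell to 427, 508 and 637 on the tilted arrays, against 1397, 1240 and 1430 on the upright arrays (log2 fold change -1.30, SE 0.22, adjusted p = 0.00967). Its call was lost without tilted replicate 1 (adjusted p = 0.0518).

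Of the falls past both thresholds, 4 more were in genes of transporters and kinases, for which no list was counted. *AT5G17700*, of the MATE efflux family, had signals of 99.1, 145 and 136 on the tilted arrays and 387, 337 and 379 on the upright arrays (log2 fold change -1.31, SE 0.159, adjusted p = 0.00127). *AT1G72140* (NPF5.12), of the nitrate and peptide transporter family, had 187, 143 and 176 on the tilted arrays and 420, 351 and 361 on the upright arrays (log2 fold change -1.004, SE 0.118, adjusted p = 0.000999). The leucine-rich repeat kinase gene *AT4G22730* had 139, 169 and 182 on the tilted arrays and 463, 443 and 458 on the upright arrays (log2 fold change -1.30, SE 0.163, adjusted p = 0.00174). In all 3 genes the groups were well apart. *ATMPK13*, a mitogen-activated protein kinase gene, fell by 1.11 (SE 0.146, adjusted p = 0.00248), with 135, 162 and 179 on the tilted arrays and 354, 389 and 415 on the upright arrays. All 4 calls held with any 1 of the 6 arrays left out, but when only those 6 arrays were fitted that of *AT4G22730* alone held.

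A chitinase and a beta-glucosidase gene fell as well. *ChiC*, a class V chitinase gene, had signals of 176, 209 and 178 on the tilted arrays and 432, 438 and 473 on the upright arrays (log2 fold change -1.10, SE 0.158, adjusted p = 0.00396), and kept its call under every alternative run. *BGLU24*, a beta-glucosidase gene, had 43.0, 41.9 and 42.6 on the tilted arrays and 115, 142 and 159 on the upright arrays (log2 fold change -1.24, SE 0.22, adjusted p = 0.012). The tilted arrays of *BGLU24* differed by about 1 unit and lay just above the added value of 32. Its call was lost without tilted replicate 1 (adjusted p = 0.0518) or upright replicate 3 (adjusted p = 0.0667).

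The small heat shock protein gene *AT1G52560* (HSP26.5), of a family of chaperones, had signals of 136, 154 and 162 on the tilted arrays and 499, 379 and 373 on the upright arrays. The groups did not overlap and the log2 fold change was -1.26 (SE 0.225, adjusted p = 0.0121). The call was lost without tilted replicate 1 (adjusted p = 0.0578) or upright replicate 1 (adjusted p = 0.0583). Of 10 small heat shock protein genes with a named probe set on a list of 18, 1 fell, 0 rose and 9 did not pass, with a median of -0.22 and values of up to 0.09. Among 7 genes of dehydration and abscisic acid (of 31 listed), 0 passed and the median was 0.01. *AT3G02480* of that list gave a log2 fold change of -1.62 (adjusted p = 0.0879), with 32.9, 24.2 and 43.1 on the tilted arrays and 335, 121 and 94.2 on the upright arrays. Upright replicate 1 was far above the other upright arrays for this gene, although the groups did not overlap.

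The plastid transcript *psbM*, which encodes a small subunit of photosystem II, was the only 1 of 69 plastid genes with a named probe set to pass. Its signal was 4926, 3581 and 4020 on the tilted arrays and 8035, 8381 and 10228 on the upright arrays, a log2 fold change of -1.11 (SE 0.191, adjusted p = 0.0102) that held with any 1 array left out. The other 68 plastid genes did not pass, and over all 69 the median was -0.07. Of the 69 values, 43 were negative (47.5% of all probe sets) and 26 positive (52.5%). *petL* had -0.61 (adjusted p = 0.195) and *rpoC1* -0.47 (adjusted p = 0.324).

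Several of the falls were in genes with little or no annotation here. *AT2G33850*, whose product is of unknown function, had signals of 418, 709 and 745 on the tilted arrays and 2093, 2227 and 1921 on the upright arrays (log2 fold change -1.70, SE 0.295, adjusted p = 0.0107, and 0.0575 without tilted replicate 1). *AT1G65490*, also of unknown function, had 60.7, 62.0 and 78.5 on the tilted arrays and 262, 222 and 149 on the upright arrays (log2 fold change -1.27, SE 0.176, adjusted p = 0.00294). Both genes showed groups far apart relative to their spread. *AT3G16530* fell by 1.18, *AT1G03820* by 1.07 and *AT5G37990* by 1.05 (adjusted p = 0.0105, 0.00794 and 0.00223). The call of *AT3G16530* was lost without tilted replicate 1 (adjusted p = 0.0558) or upright replicate 3 (adjusted p = 0.0591). At the edge of the fold threshold, *AT3G27400* (-1.04) and *AT1G72140* (-1.004) were the nearest inside it, and *AT4G29270* (-0.9998) and *AT3G32030* (-0.99) the nearest outside it. *AT4G29270* had 2235, 2503 and 2876 on the tilted arrays and 5112, 5058 and 4906 on the upright arrays.

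Of the 15 named genes with the largest rise, 8 had all 3 upright arrays under 32, so that their log2 fold changes of 0.55 to 0.87 understate the change in signal. With a pseudocount of 1 their estimates were larger but not always steadier. Limma's adjusted test then lost *AT2G07700*, *AT5G46440*, *AT3G13630* and *AT2G11570* (adjusted p = 0.198, 0.214, 0.0849 and 0.0655). It kept *CSA1*, *AT3G15860*, *AT2G37910* and *AT1G32390*. *CSA1* (constitutive shade-avoidance1) had signals of 38.4, 32.5 and 34.5 on the tilted arrays and 6.14, 7.59 and 1.22 on the upright arrays (log2 fold change 0.81, SE 0.14, adjusted p = 0.0104). In Col-0 the same probe set gave 302, 302 and 237 at Agp 45° and 319, 324 and 275 at Agp 90°, so the WS signals were low at both angles. *AT3G15860* had 39.0, 23.3 and 39.5 on the tilted arrays and 5.08, 2.23 and 7.71 on the upright arrays (log2 fold change 0.78, adjusted p = 0.0064) and was the only 1 of the 15 to keep its call with any 1 array left out.

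Among brighter rises, *AT1G02460* had signals of 200, 201 and 175 on the tilted arrays and 95.1, 128 and 85.4 on the upright arrays (log2 fold change 0.78, SE 0.132, adjusted p = 0.00967). *AT1G69526*, a UbiE/COQ5 methyltransferase gene, had 670, 618 and 747 on the tilted arrays and 473, 405 and 314 on the upright arrays (log2 fold change 0.75, SE 0.147, adjusted p = 0.021). *ASPGB1*, which encodes an asparaginase, had 455, 501 and 486 on the tilted arrays and 305, 332 and 273 on the upright arrays (log2 fold change 0.64, SE 0.143, adjusted p = 0.0456). In these 3 genes the tilted arrays were all above the upright ones. *AT1G13670* rose by 0.65 and *AT5G27410* by 0.61 (adjusted p = 0.0291 and 0.0115). Leaving out 1 array ended the call of *AT1G02460*, *AT5G27410* and *CSA1* for tilted replicate 1 and upright replicate 3 (highest adjusted p = 0.0633), of *AT1G69526* for 4 of the 6 arrays (0.101), of *AT1G13670* for 5 (0.118) and of *ASPGB1* for all 6 (0.146). The other 6 of the 15, *AT3G13630*, *AT2G07700*, *AT5G46440*, *AT2G37910*, *AT2G11570* and *AT1G32390*, had upright means of 1.01 to 14.1 and lost their calls without at least 2 of the 6 arrays, and the probe sets of *AT2G11570*, *AT1G32390* and *AT3G32030* are of a type that matches more than 1 transcript.

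No listed gene of sugar transport or sugar starvation that had a named probe set passed limma's adjusted test. The study reports *ASN1*, a gene of darkness and sucrose starvation responses, as lower in WS roots tilted backward. *ASN1* had no probe set named for it alone, so it is not among the genes counted here. The sucrose exporter gene *SWEET11* had signals of 1844, 1344 and 2505 on the tilted arrays and 576, 353 and 444 on the upright arrays. The groups did not overlap, but their spread was wide, and a log2 fold change of 1.94, the highest of all probe sets, came with a SE of 0.584 and an adjusted p of 0.15. Of 18 named genes for moving or cleaving sugars (33 listed), 0 passed. At limma's unadjusted p of 0.05, 3 were higher (5.85% of all probe sets) and 0 lower (6.68%). Of their values, 13 were positive (52.5% of all probe sets) and 5 negative (47.5%), with a median of 0.12. *SWEET3* had 0.69 (adjusted p = 0.271). The 7 genes induced by sugar starvation and darkness with a named probe set, of 25 listed, all had positive values, of 0.31 to 0.84 with a median of 0.57, against 52.5% positive values over all probe sets, and 0 passed. For 6 of these 7, the tilted arrays all lay above the upright ones (8.9% of all probe sets), as in *AT4G27450* with 956, 736 and 788 against 594, 407 and 487 (log2 fold change 0.72, adjusted p = 0.299), and *MGL* had the highest value of them (adjusted p = 0.477).

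**Figure D3:**
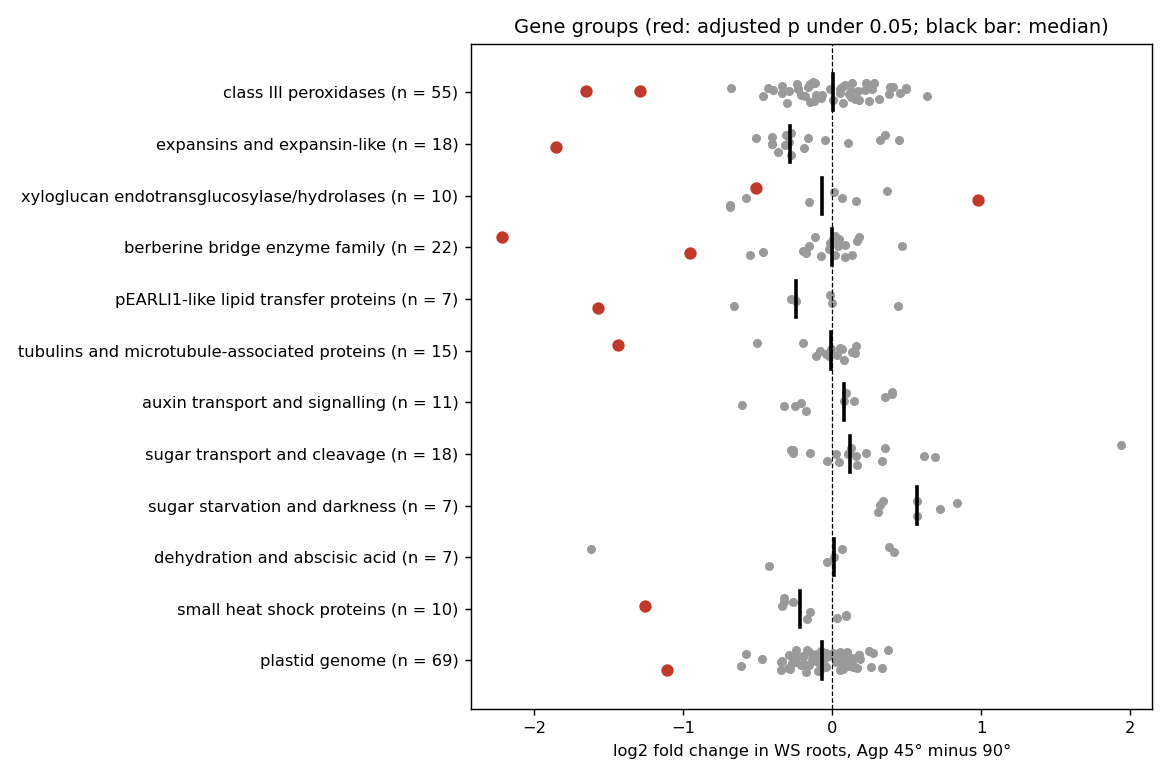
Log2 fold changes of WS roots, Agp 45° minus 90°, for the members of 12 gene groups that have a named probe set (n beside each name); red points passed an adjusted p of 0.05 over all probe sets, grey points did not, and black bars are the medians. The red points lie to the left of the median of their group, except that of *XTH21*, which lies to the right. The medians run between -0.28 (expansins) and 0.57 (sugar starvation and darkness). The auxin, sugar transport and dehydration groups have no red point. Of 25 listed genes of sugar starvation and darkness, the 7 with a named probe set all lie to the right of 0 with no red point.

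Hormone and touch genes with a named probe set gave no calls, and many of those listed had none. Of 11 genes of auxin transport and signalling with a named probe set (56 listed), 0 passed limma's adjusted test. By the unadjusted p, 2 stood above (5.85% of all probe sets) and 1 below (6.68%) at the 0.05 level. *GH3.3*, an auxin-conjugating enzyme gene, had -0.61 (adjusted p = 0.385), *IAA18*, an auxin response repressor, 0.35 (adjusted p = 0.161) and *WAG2*, a kinase gene of auxin transport and root waving, 0.40 (adjusted p = 0.364). The 3 touch and mechanosensing genes (14 listed), the 1 ethylene gene (24 listed) and the 3 jasmonate genes (23 listed) with a named probe set did not pass either. Nor did the 6 GASA peptide genes (14 listed) or the 4 genes of the SKU5 family (17 listed), in which *SKU5* itself had -0.09 (adjusted p = 0.679). At an unadjusted p of 0.05, *CML23*, a calmodulin-like touch gene, was lower (log2 fold change -0.30, adjusted p = 0.343), and none of the others was past that level.

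Markers of the tissue with a named probe set did not pass. Of the listed genes, these were 4 of 18 for root hairs, 3 of 6 for lateral root initiation and 2 of 11 for cell division. For leaf photosynthesis they were 2 of 20. So few genes say little on the make-up of the roots. The summed signal of the 4 root hair genes was 2472 to 3855 on the tilted arrays and 2788 to 3636 on the upright arrays, and that of the 2 leaf photosynthesis genes measured, *RCA* and *PRK*, was 798 to 966 on the tilted and 803 to 1565 on the upright arrays. The summed signal of the 3 lateral root initiation genes was 386 to 459 on the tilted and 449 to 478 on the upright arrays, and that of the 2 cell division genes was 1563 to 1605 on the tilted and 1778 to 1833 on the upright arrays. Of these, *PUCHI* (-0.32, adjusted p = 0.339), *AUR2* (-0.28, adjusted p = 0.384) and *PRK* (-0.69, adjusted p = 0.387) were lower at an unadjusted p of 0.05. At that level 6.68% of all probe sets were lower, and none of these markers was higher. Positive values were held by 2 of the root hair genes (up to 0.06) and 1 of the lateral root initiation genes (0.11). Whether the make-up of the roots differed between the angles, and whether that had a part in the falls above, was not tested. The lists for the endodermis and the root cap had 0 genes with a named probe set.

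Col-0 roots at Agp 45° and 90° share no array with the WS comparison. Of the 188 probe sets that fell in WS, 166 (88.3%) were also lower in Col-0 at Agp 45° than at Agp 90°, against 51.2% of all probe sets. The share that was lower in Col-0 at an unadjusted p of 0.05 was 47.3%, against 3.64% of all. Their median log2 fold change in Col-0 was -0.23. Of the 36 rises, 25 (69.4%) were higher in Col-0, against 48.8% of all probe sets, and 13.9% were so at an unadjusted p of 0.05, against 3.71%. Since the probe sets were chosen for their change in WS, their smaller size in Col-0 is no measure of a difference between the ecotypes.

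**Figure D4:**
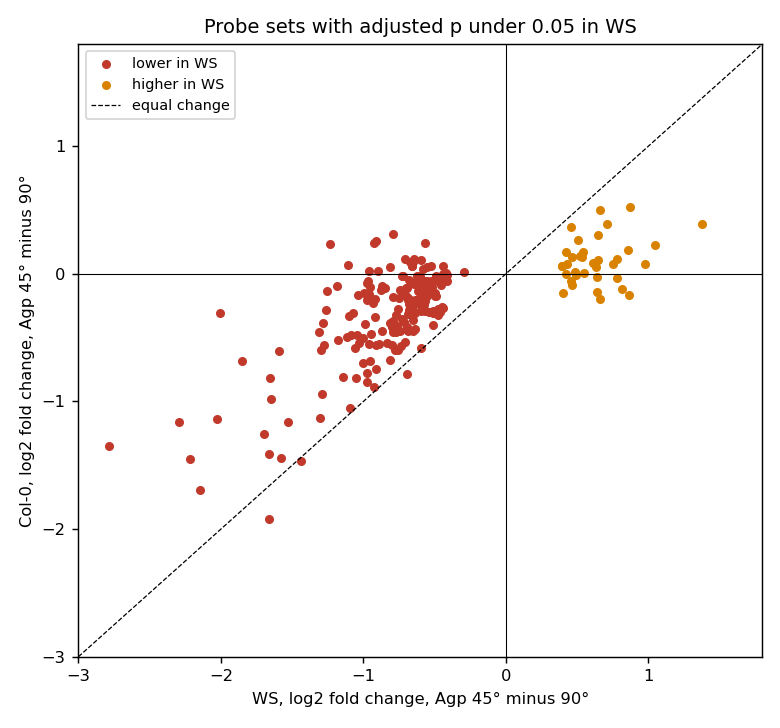
Log2 fold changes of Agp 45° minus 90° for the 224 probe sets with an adjusted p under 0.05 in WS, in WS (horizontal) and in Col-0 (vertical); red points fell and orange points rose in WS, and the dashed line marks an equal change. Of the 188 red points, 166 lie below 0 on the Col-0 axis, and the points were chosen on the horizontal axis only.

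The difference between ecotypes was tested as an interaction, the WS log2 fold change less that of Col-0. Over all probe sets, 0 of 22746 passed an adjusted p of 0.05 in limma (0%), 1672 were past an unadjusted p of 0.05 (7.35%), and the smallest adjusted p was 0.15. None of the named genes can therefore be called particular to WS. *SP1L2* had signals of 540, 357 and 408 in Col-0 at Agp 45° and 930, 1093 and 1823 in Col-0 at Agp 90°, a log2 fold change of -1.47 (adjusted p = 0.0599), and an interaction of 0.03 (SE 0.353, adjusted p = 0.991). *AT4G12490*, at -1.45 in Col-0, had an interaction of -0.13 (SE 0.418, adjusted p = 0.961), and *AT4G14060*, at -1.13 in Col-0, one of -0.17 (SE 0.311, adjusted p = 0.924). For these 3 genes the estimated change was thus of similar size in both ecotypes, within SEs that leave room for a difference.

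Other genes had larger interactions that did not pass. *BGLU24* had signals of 11.8, 17.2 and 41.2 in Col-0 at Agp 45° and 18.3, 9.17 and 17.6 in Col-0 at Agp 90°, below or near 32 at both angles, and an interaction of -1.47 (SE 0.312, adjusted p = 0.485). *psbM* had 0.07 in Col-0 and an interaction of -1.18 (SE 0.27, adjusted p = 0.485). *EXLA3* had -0.69 in Col-0, with 87.4, 88.9 and 88.0 at Agp 45° and 127, 184 and 197 at Agp 90°, and an interaction of -1.17 (SE 0.29, adjusted p = 0.485). *AT3G16530* had -0.09 in Col-0 and *AT1G52560* -0.28, with interactions of -1.09 and -0.98 (SEs 0.289 and 0.318, adjusted p = 0.485 and 0.546). Across the 22 named genes that fell past both thresholds, the median log2 fold change was -1.27 in WS and -0.59 in Col-0, where 20 of 22 were negative and the smallest adjusted p was 0.0503, for *AT5G44400*.

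Forward tilting of WS roots (Agp 135°) was set against the same upright arrays, so these values are not independent of those at Agp 45°. The 22 genes had log2 fold changes of -1.23 to 0.05 at Agp 135°, with a median of -0.57, and none passed (smallest adjusted p = 0.0576, for *AT5G17700*). *AT5G06730* (PER54) was at -1.23 and *AT5G44400* at -1.19, while *AT1G52560* was at 0.05, *AT1G72140* at -0.20 and *AT5G37990* at -0.25. *AT5G62330* was at 0.98 (adjusted p = 0.162) and *SWEET11* at 1.87 (adjusted p = 0.247), whereas *XTH21* was at 0.10 (adjusted p = 0.913).

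**Figure D5:**
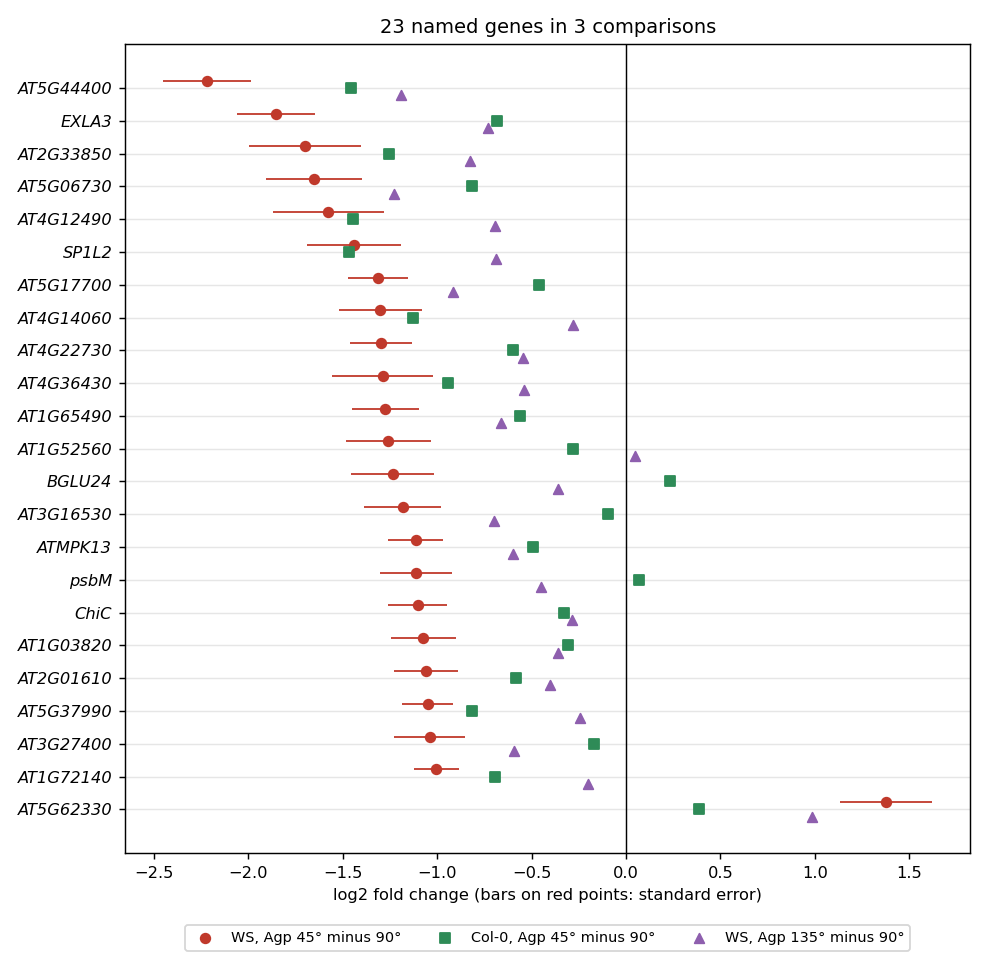
Log2 fold changes of the 23 named genes past both thresholds in WS at Agp 45° minus 90° (red circles, with standard errors), in Col-0 at Agp 45° minus 90° (green squares) and in WS at Agp 135° minus 90° (purple triangles); red and purple share the upright WS arrays. Red points lie beyond 1 in size by the choice of genes, green points run between -1.47 and 0.39 and purple points between -1.23 and 0.98.

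Tested directly, WS roots tilted backward (Agp 45°) differed from WS roots tilted forward (Agp 135°) at 81 probe sets (0.356% of all), 23 higher (0.101%) and 58 lower (0.255%) at Agp 45°, a comparison that shares the tilted arrays with the one above. *EXLA3* had signals of 9.24, 42.9 and 41.5 at Agp 45° and 122, 80.9 and 102 at Agp 135°, a log2 fold change of -1.12 (adjusted p = 0.0251). *AT1G52560* had 136, 154 and 162 at Agp 45° and 474, 342 and 484 at Agp 135° (log2 fold change -1.31, adjusted p = 0.0191). For both genes the arrays of the 2 angles did not overlap. Also lower at Agp 45° were *ChiC* (-0.82, adjusted p = 0.0345), *AT5G37990* (-0.80, adjusted p = 0.0166), *AT1G72140* (-0.80, adjusted p = 0.0089) and *AT4G29270* (-0.57, adjusted p = 0.0479), and higher were *AT3G15860* (0.84, adjusted p = 0.0067), *AT1G02460* (0.78, adjusted p = 0.0166) and *AT1G32390* (0.51, adjusted p = 0.0348). *AT1G02460* had 200, 201 and 175 at Agp 45° and 110, 96.1 and 107 at Agp 135°. The count fell to 11 without WS Agp 135° replicate 1, and to 30 without WS Agp 45° replicate 2 and 38 without WS Agp 45° replicate 1.

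Of the 41 named genes that passed, 15 kept their call in all 6 fits that left out 1 of the compared arrays, and 26 lost it in at least 1. A fit of the 6 compared arrays alone ended 37 of the 41 calls, and of the 15 it left those of *AT5G44400*, *AT4G22730* and *ChiC*. Leaving out tilted replicate 1 ended 26 of the 41 calls and leaving out upright replicate 3 ended 21, while the numbers were 11 and 10 for tilted replicates 2 and 3 and 9 and 13 for upright replicates 1 and 2. The 15 were *AT5G44400*, *EXLA3*, *AT5G06730*, *AT5G17700*, *AT4G22730*, *AT1G65490*, *ATMPK13*, *psbM*, *ChiC*, *AT1G03820*, *AT2G01610*, *AT5G37990*, *AT1G72140* and *AT4G29270*, which fell, and *AT3G15860*, which rose.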

How the data were processed

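Roots were profiled on ATH1 arrays. The authors deposited MAS5 signal intensities from Affymetrix Expression Console (version not given in the sources used here), linear and scaled so that the mean of each array, with 2% trimmed at each end, is 500.0; the methods tested RMA values, not used here. To each of the 22810 signals 32 was added before log2 and quantile normalization, and 64 controls were left out. A model of 6 group means over 18 arrays was fitted in limma 3.58.1 (R 4.3.3; 12 residual and 3.45 prior degrees of freedom), with Benjamini-Hochberg adjustment over 22746 probe sets and two-sided p-values. The code was tried on simulated data with planted changes and independent noise on each array. Those data had no effects shared across an array, so they say nothing on the counts that leaned on single arrays. Standard errors come from the model.

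Gene names came from the platform table and gene identifiers of TAIR10.1: 13436 of 13513 single-gene probe sets matched, 503 had several genes and 8730 none. Text names genes past both thresholds, the 15 largest rises, members of 23 gene lists that passed, genes the study names for this comparison (those with several or no gene on their probe set are not analysed here), and the 2 nearest on each side of the fold threshold; list members that did not pass are given by value after these were seen. Members and lists were chosen with earlier results of these data known. Alternatives were no quantile step, a pseudocount of 1 or 100, no 40% dimmest probe sets, an intensity trend, compared groups only, a replicate block, and arrays left out.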

Additional observations from a re-analysis of the deposited data

How the results depend on the processing

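No named gene changed direction under any alternative run for it; without the 40% dimmest probe sets, only 31 of the 41 called genes and *SWEET11* were tested. A fit of the compared groups alone, which lowers the degrees of freedom, gave 10 calls by the adjusted p for tilted against upright WS roots (9 past a log2 fold change of 1) and 13 for backward against forward. A pseudocount of 1 gave 66 past both thresholds by the adjusted p, 585 by the unadjusted p and 36 for backward against forward, and a pseudocount of 100 gave 26 and 29 past both thresholds. Without upright WS replicate 3 and Col-0 Agp 90° replicate 2, the arrays with the highest actin ratios, 91 passed. Leaving out 1 array at a time gave 79 to 199 calls at any fold change, 25 to 55 past both thresholds by the adjusted p, 53 to 81 by the unadjusted p, and 11 to 68 for backward against forward; leaving out WS Agp 135° or Col-0 arrays was chosen after seeing the data. The interaction gave 0 calls in 18 of the 20 alternatives and 1, lower in WS and on a probe set with no gene name here, both without the 40% dimmest probe sets and with an intensity trend. As a replicate block, the array number gave 204 calls (24 higher and 180 lower) and ended 5 of the 41 named calls, all of them rises. Tilted and upright arrays of the same number had residual correlations of -0.0164, -0.0288 and -0.0222, and those of different numbers had -0.00784 to 0.0327. No pairing by number was thus seen, but such values cannot exclude that equal numbers shared a plate or sowing. The 3 arrays per group and signals near 32 limit what can be seen, and the cause of the changes with a left-out array was not tested.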

Other observations

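Other named genes passed the adjusted test in tilted WS roots at smaller fold changes; those below were chosen after their values were seen. *CLE41*, whose peptide promotes division of vascular stem cells, had signals of 213, 159 and 215 on the tilted arrays and 353, 338 and 346 on the upright arrays (log2 fold change -0.71, adjusted p = 0.00538). *OPS* (OCTOPUS), a gene of phloem differentiation, had 202, 152 and 140 on the tilted arrays and 263, 274 and 269 on the upright arrays (log2 fold change -0.59, adjusted p = 0.0172). The homeodomain gene *PHV* (PHAVOLUTA) fell by 0.41 (adjusted p = 0.0462). For the 3 genes the groups did not overlap.

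They were not taken from a list, and genes of like function that did not pass were not counted. The signal of *GH9B13*, of the glycosyl hydrolase family of cellulases, was 1809, 1915 and 1898 on the tilted arrays and 3022, 3356 and 3162 on the upright arrays (log2 fold change -0.75, adjusted p = 0.0133). *TBL36*, of a family that acetylates wall polysaccharides, fell by 0.68 (adjusted p = 0.00794), *CCR2*, a cinnamoyl-CoA reductase gene of the lignin pathway, by 0.55 (adjusted p = 0.0291) and *RALFL31*, of the RALF peptide family, by 0.57 (adjusted p = 0.00388). The jacalin-related lectin gene *JAL22* fell by 0.93 (adjusted p = 0.00432) and kept its call when only the compared groups were fitted. *AT4G11190*, a dirigent family gene, fell by 0.82 (adjusted p = 0.0173), with 3197, 3025 and 2794 on the tilted arrays and 5768, 4963 and 4907 on the upright arrays. In the TAIR10.1 gene order, *AT5G38020* (-0.69, adjusted p = 0.0421) and *AT5G38030* (-0.60, adjusted p = 0.00991) are next to each other and 2 genes away from *AT5G37990*, and *AT2G38860* (YLS5; -0.43, adjusted p = 0.0256) is next to *AT2G38870* (-0.68, adjusted p = 0.0472). *AT3G13630* (0.87, adjusted p = 0.026) and *AT3G13650* (-0.78, adjusted p = 0.0285), with 1 gene between them, changed in opposite directions.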
